A study of Sus scrofa with 8 samples.

Results

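This section describes genes of nerve cells and of Schwann cells, the glia that wrap peripheral nerves, in cultured islets of neonatal pigs. The genes looked for were the neuronal and neuroendocrine genes NPY, STMN2, NEFL, NEFM and TUBB3, and the glial genes S100B, SOX10 and GFAP. Each gene was read by every probe set of the array, a group of short oligonucleotides that reads 1 transcript, whose annotation gives only that gene's symbol. The 6 genes other than NEFM and TUBB3, of 6765 genes so annotated, had such probe sets, 12 of the 24123 on the array, with 6 neuronal and 6 glial. NEFM and TUBB3 had none under this rule and were not analysed here. No measured value was used to choose the probe sets of a gene. The genes themselves, and the lists of related genes used further on, were chosen with earlier results of these arrays known. NPY and STMN2 are among the genes that the study picked from these same arrays. The differences and counts below are therefore not independent evidence.

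Islets came from male pigs of a Duroc and Large white cross, 4 of 7 days and 4 of 3 days of age. The sample titles name 1 pig for each Affymetrix porcine GeneChip. Every preparation then spent 7 days in culture, in Ham's F10 with 10 mmol/l glucose, 50 µmol/l isobutylmethylxanthine, a phosphodiesterase inhibitor, and 10 mmol/l nicotinamide, so no freshly isolated tissue was measured. Islets from neonatal pigs are mixed preparations that still hold duct, stromal and other non-endocrine cells. An array of whole islets cannot tell fewer cells of a type from less RNA per cell. Values are linear fluorescence intensities that the authors had already scaled between arrays. They were put on the log2 scale, and the ages were compared by limma, a linear model with moderated variances, over 21574 probe sets with Benjamini-Hochberg adjustment and a threshold of 0.05. The number of arrays limits the precision.

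Islets are innervated. Sympathetic, parasympathetic and sensory fibres can enter them along blood vessels, and Schwann cells can form a sheath around the islet surface. How far this holds for islets of neonatal pigs was not measured here. Islet endocrine cells also share many genes with neurons, among them those for secretory granules and regulated exocytosis, so a neuronal transcript in an islet preparation may come from nerve or from endocrine cells. When islets are isolated the axons are cut from their cell bodies, while Schwann cells and any neurons lying within the islet can be carried into culture.

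Most of the neuronal and some of the glial probe sets were lower in arrays labelled 7-day-old. Of the 12 probe sets, 7 were lower past the threshold, against 5.47% of all probe sets tested. None of the 12 was higher, against 5.21% of all probe sets, and 5 did not pass. The lower probe sets belonged to NPY, STMN2, NEFL, S100B and GFAP, 5 of the 6 genes. They comprised 5 of the 6 neuronal and 2 of the 6 glial probe sets. By gene the classes were closer, with a call for 3 of 3 neuronal and 2 of 3 glial genes, since most glial probe sets read GFAP. The median log2 difference, 7-day-old minus 3-day-old, was -1.52 over the neuronal and -0.78 over the glial probe sets, and -0.001 over all probe sets tested. In the same 7 probe sets every array labelled 7-day-old lay below every array labelled 3-day-old, which held for 10.3% of all probe sets tested. Arrays are named here by the age in their deposited labels. The study gives NPY and STMN2 the opposite direction, higher at the older age, and likewise the opposite direction for NEUROD1, PCSK2, GALP, PECAM1, DCN, RGS5 and LIF, which are described further on, and the sources used here do not settle which naming is right. Exchanging the labels would leave the size of each difference as it is and turn its sign. With 1 array left out, 3 to 7 of the 12 were called, 3 without 3-day-old replicate 2 or 3 and 4 without 7-day-old replicate 1, 2 or 3. Calls over all probe sets fell as well, from 2305 to between 1008 and 1854. A call lost in such a fit, here or below, is therefore not by itself a mark of that array's values.

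**Figure D1:**
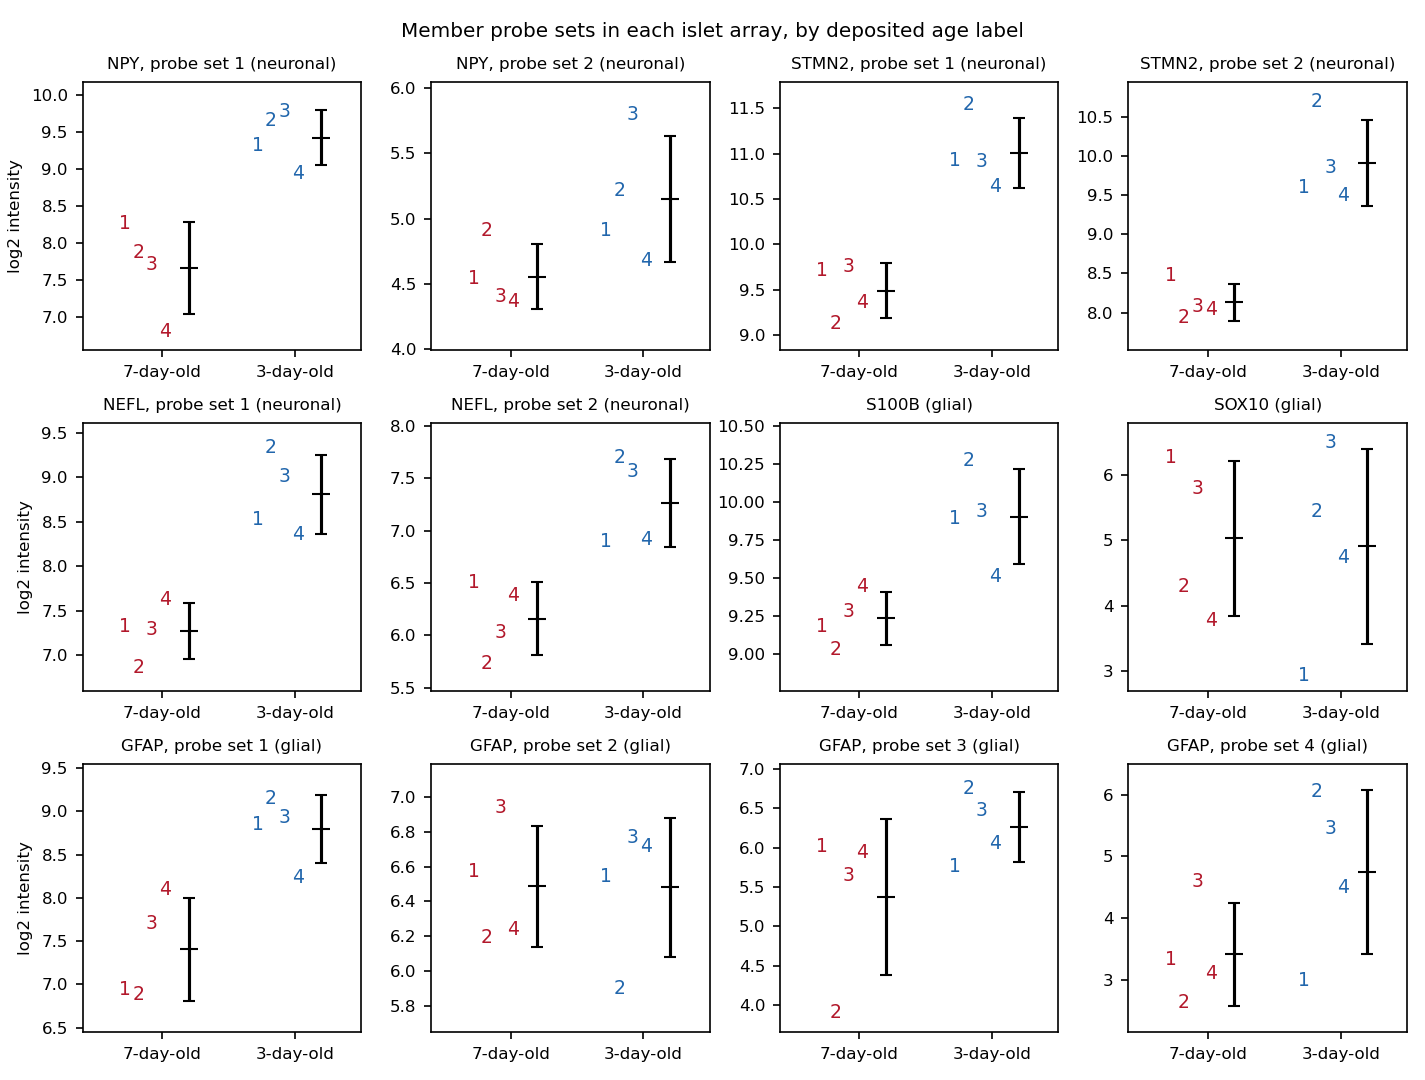
Log2 intensity (vertical axes, 1 scale per panel) of the 12 member probe sets in arrays labelled 7-day-old (red, left) and 3-day-old (blue, right). Each digit is the replicate number of 1 array, and the bar beside it gives mean ± SD of 4 arrays. The groups do not overlap in 7 panels: the first probe set of NPY, both of STMN2, both of NEFL, S100B and the first of GFAP.

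NPY encodes neuropeptide Y, a transmitter of sympathetic nerves that restrains insulin secretion and that is also made by islet endocrine cells in young rodents. Its brighter probe set (Ssc.15981.1.S1_at) had intensities of 306, 235, 210 and 111 in 7-day-old replicates 1 to 4, against 641, 809, 876 and 492 in 3-day-old replicates 1 to 4. The highest 7-day-old array remained under the lowest 3-day-old array, and 7-day-old replicate 4 lay furthest down. The means were 215 ± 80.4 in 7-day-old and 705 ± 173 in 3-day-old arrays (SD, n = 4 each). NPY was thus 3.40-fold lower in 7-day-old arrays, a log2 difference of -1.77 ± 0.33 (SE) with a 95% interval of -2.53 to -1.0 (limma, adjusted p = 0.019). The call was lost without 3-day-old replicate 2 (log2 difference -1.69, limma adjusted p = 0.055) and without 3-day-old replicate 3 (-1.65, limma adjusted p = 0.0549). The difference changed little in these fits, where the calls over all probe sets also fell, from 2305 to 1069 and 1021.

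The other NPY probe set (Ssc.15981.1.A1_at) was dim and reached the 20th percentile of its array in only 4 of 8 arrays, 1 labelled 7-day-old and 3 labelled 3-day-old. It had 20.6 to 30.1 in 7-day-old and 25.6 to 55.7 in 3-day-old arrays, which overlapped (log2 difference -0.59, limma adjusted p = 0.173).

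STMN2 encodes stathmin 2, also called SCG10, a microtubule regulator of growing axons. Both of its probe sets were lower in 7-day-old arrays. The first (Ssc.13915.1.S1_at) had 840, 559, 866 and 656 in 7-day-old replicates 1 to 4, against 1943, 2994, 1935 and 1595 in 3-day-old replicates 1 to 4. The second (Ssc.3937.1.S1_at) had 356, 244, 271 and 263 in 7-day-old and 778, 1667, 928 and 719 in 3-day-old replicates, in the same order. In both, 3-day-old replicate 2 was the highest of all arrays and the 2 ages did not overlap. The log2 difference was -1.52 ± 0.23 (SE, 95% interval -2.05 to -0.99) for the first and -1.78 ± 0.27 (-2.42 to -1.15) for the second, with limma adjusted p of 0.00975 and 0.0105. These are 2.86-fold and 3.44-fold lower levels in 7-day-old arrays. Both calls held when any 1 of the 8 arrays was left out, with adjusted p up to 0.0308 for the first and 0.0364 for the second.

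NEFL encodes the light chain of neurofilaments, the intermediate filaments that fill axons. Its first probe set (Ssc.10769.1.S1_at) had 160, 116, 156 and 197 in 7-day-old replicates 1 to 4, against 369, 643, 513 and 328 in 3-day-old replicates 1 to 4. The 2 ages did not overlap and the level was 2.89-fold lower in 7-day-old arrays (log2 difference -1.53 ± 0.25, SE, 95% interval -2.11 to -0.95, limma adjusted p = 0.0127). This call held with each array left out. The second probe set (Ssc.20298.1.S1_at) had 91, 53.1, 65.1 and 83.2 in 7-day-old and 119, 207, 189 and 121 in 3-day-old replicates. It too was lower without overlap, 2.15-fold, with a log2 difference of -1.10 ± 0.25 (SE, limma adjusted p = 0.0344). Its call held when 3-day-old replicate 1 or 3-day-old replicate 4 was left out and was lost with any of the other 6 arrays left out, with limma adjusted p of 0.0542 to 0.087.

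**Figure D2:**
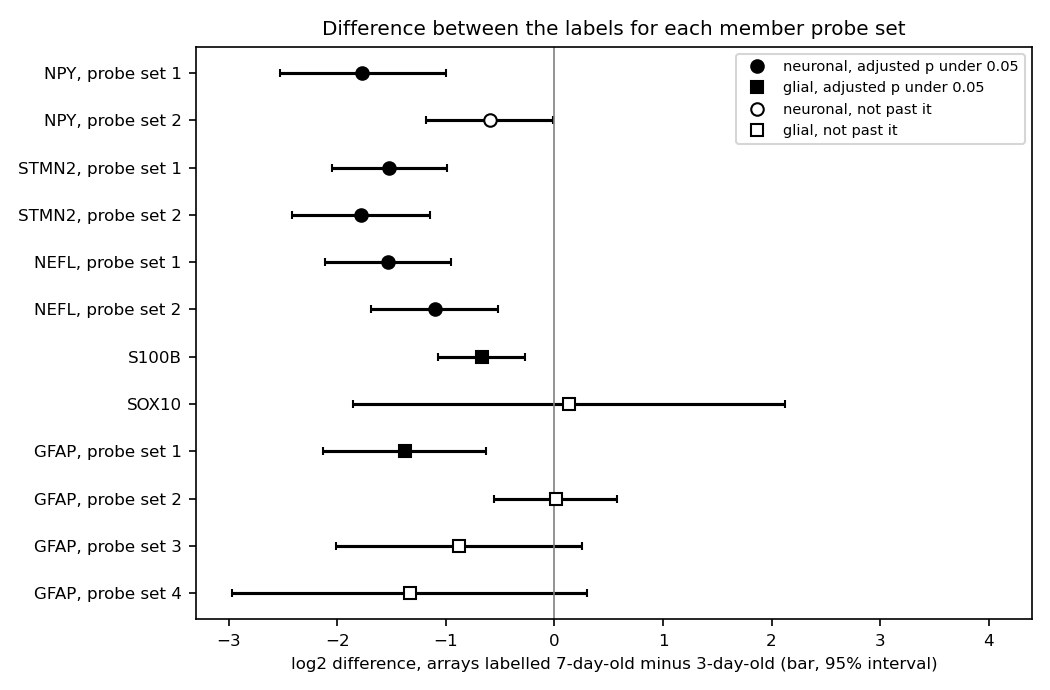
Difference in log2 intensity, 7-day-old minus 3-day-old labels (horizontal axis), for each member probe set, with its 95% interval from limma, circles for neuronal and squares for glial genes, filled where the adjusted p is under 0.05. The 7 filled points lie between -1.78 and -0.67, and the widest interval is that of SOX10, from -1.86 to 2.12.

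The glial genes moved less uniformly than the neuronal ones, though the difference between the classes was not tested. S100B encodes a calcium-binding protein of Schwann cells and astrocytes that is used to stain the islet's glial sheath. Its only probe set (Ssc.10742.1.A1_at) had 579, 523, 622 and 694 in 7-day-old replicates 1 to 4, against 950, 1234, 977 and 727 in 3-day-old replicates 1 to 4. The groups were close, since 7-day-old replicate 4 at 694 lay just under 3-day-old replicate 4 at 727. The means were 604 ± 72 in 7-day-old and 972 ± 207 in 3-day-old arrays (SD, n = 4 each). S100B was 1.59-fold lower in 7-day-old arrays, the smallest of the 7 called differences (log2 -0.67 ± 0.17, SE, 95% interval -1.07 to -0.27, limma adjusted p = 0.0486). The call was lost with any array other than 3-day-old replicate 4 left out (limma adjusted p 0.0669 to 0.119), and with no filter on low values (0.0608).

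GFAP encodes glial fibrillary acidic protein, an intermediate filament of astrocytes and non-myelinating Schwann cells that pancreatic stellate cells also make. Its 4 probe sets disagreed. The first (Ssc.5137.1.S1_at) had 123, 118, 209 and 273 in 7-day-old replicates 1 to 4, against 460, 569, 488 and 301 in 3-day-old replicates 1 to 4. Here 7-day-old replicate 4 and 3-day-old replicate 4 were again nearly level, without overlap. The level was 2.61-fold lower in 7-day-old arrays (log2 difference -1.38 ± 0.32, SE, 95% interval -2.13 to -0.63, limma adjusted p = 0.0362). The call held without 7-day-old replicate 4 and without 3-day-old replicate 4. It was lost with any of the other 6 arrays left out (limma adjusted p 0.0564 to 0.0912).

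The second GFAP probe set (Ssc.17032.1.S1_at) had 73.2 to 123 in 7-day-old and 59.6 to 109 in 3-day-old arrays, all above the 20th percentile. Its log2 difference was 0.01 with a 95% interval of -0.56 to 0.58, which does not reach the estimate of the first probe set. The third (Ssc.26101.1.S1_at) had 15 to 64.5 in 7-day-old and 54.1 to 108 in 3-day-old arrays, and the fourth (Ssc.26101.2.S1_at) 6.18 to 24.1 in 7-day-old and 7.96 to 66.4 in 3-day-old arrays. Both overlapped between the ages, with log2 differences of -0.88 and -1.33 and limma adjusted p of 0.285 and 0.265. The fourth was dim, reaching the 20th percentile in 2 arrays, both labelled 3-day-old. The deposited annotation does not say which transcript part each probe set reads.

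SOX10 encodes the transcription factor that defines Schwann cells and the rest of the neural crest glia. Its probe set (Ssc.27602.1.A1_at) had 77.4, 19.6, 55.8 and 13.7 in 7-day-old replicates 1 to 4, against 7.62, 43.7, 91 and 26.8 in 3-day-old replicates 1 to 4. Values were scattered over the same range at both ages, and only 2 arrays of each label reached the 20th percentile. The log2 difference was 0.13 with a 95% interval of -1.86 to 2.12 (limma adjusted p = 0.942). This interval holds both a fall as large as that of NPY and a rise of the same size, so a difference in SOX10 was not detectable here.

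An exact permutation test of the difference in mean log2 intensity, two-sided, gave p = 0.0286 for the 7 called probe sets. This is the smallest p that 4 arrays against 4 allow, and it was 0.049 once adjusted over the member probe sets. Any probe set without overlap between the labels must get this p, so the test adds nothing to the non-overlap given above. Of all 21574 probe sets tested, 4568 had no overlap in either direction. The other 5 gave 0.0571 to 1.

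Within each label the members did not all vary alike. Of the 7 called probe sets, 3-day-old replicate 2 had the highest 3-day-old value in 6 and 3-day-old replicate 4 the lowest in 6. Among 7-day-old arrays, replicate 2 was the lowest in 6 of the 7. NPY was the exception at the top of the 3-day-old arrays, where replicate 3 was highest, and at the bottom of the 7-day-old arrays, where replicate 4 was lowest. Once each label's mean was subtracted, the deviations over the 8 arrays correlated at 0.87 between the STMN2 probe sets and at 0.91 between the NEFL probe sets (Pearson r, a description over arrays that share 1 scaling). The neuronal NEFL and the glial S100B were as close, at 0.91 for the first NEFL probe set, and S100B and the first GFAP probe set were at 0.85. NPY stood apart, at 0.44 with the first STMN2 probe set, 0.05 with S100B and -0.37 with the first GFAP probe set. Over the 21 pairs of called probe sets the median r was 0.70.

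**Figure D3:**
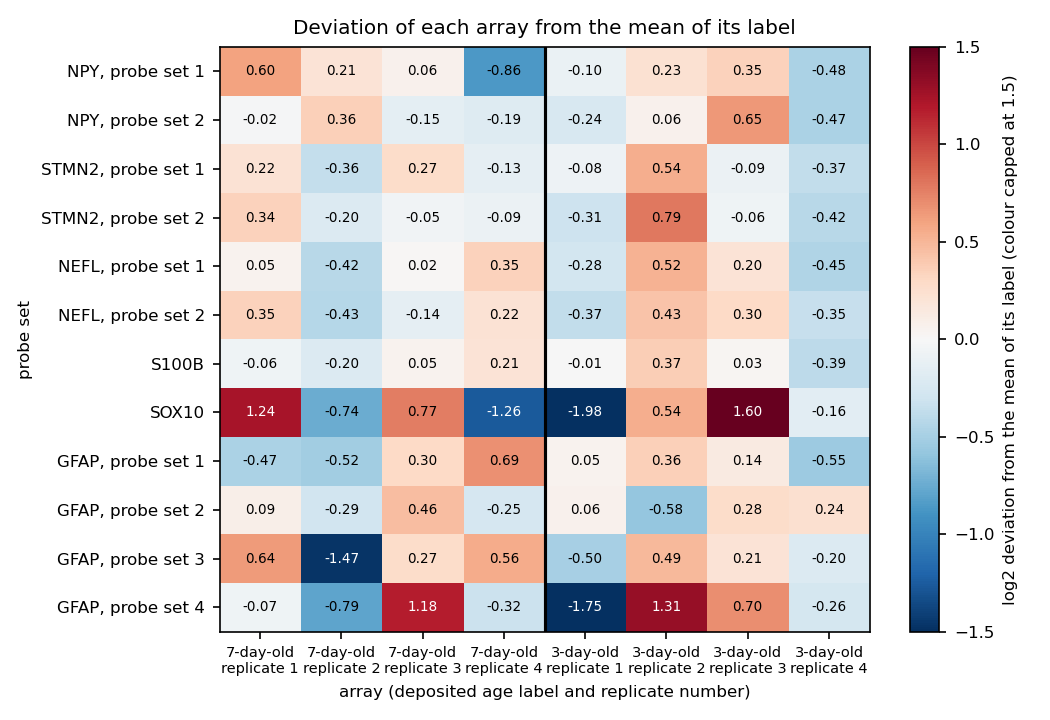
Log2 deviation of each array (columns, 7-day-old left of the line and 3-day-old right of it) from the mean of its label, for the 12 member probe sets (rows); red is above the mean, blue below, and the colour is capped at 1.5. The column of 3-day-old replicate 2 is above its mean for 6 of the 7 called probe sets by more than in any other 3-day-old array, and SOX10 varies most.

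The genes whose deviations were most like those of a member were read from 9535 probe sets with 1 symbol, as a ranking only. For the first GFAP probe set the 5 nearest were a pair of probe sets of GPM6B, a membrane glycoprotein, with r of 0.960 and 0.945, ARHGEF6 and NDRG2 at 0.950 each and C7H6orf106 at 0.945. GPM6B, ARHGEF6 and NDRG2 were also lower in 7-day-old arrays, with log2 differences of -1.16 and -0.96 for the GPM6B probe sets, -0.81 for ARHGEF6 and -0.49 for NDRG2 (limma adjusted p 0.00759 to 0.0342). For S100B the nearest were FAM104A at 0.986, LYRM7 at 0.983 and GMDS at 0.976. Their log2 differences were 0.36, 0.20 and 0.17, none past the threshold. Of the 5 nearest to S100B only QKI, at 0.972, passed, and it was lower in 7-day-old arrays (log2 -0.85, limma adjusted p = 0.0103). The nearest to NPY were FAM13A at 0.979 and CCNI at 0.978, neither past the threshold, and of its 5 nearest CDC42EP5, at 0.969, was lower in 7-day-old arrays (log2 -0.56, limma adjusted p = 0.0328). For STMN2 the nearest was CDK13 at 0.950, and none of its 5 nearest passed. For the dim SOX10 probe set the nearest was HNRNPD at 0.992, and none of its 5 nearest passed. This r was the highest found for any member ranked, so the size of r alone says little.

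Neuronal and neuroendocrine genes other than the members split in direction. Of 21 such genes measured, 4 were lower in 7-day-old arrays, against 7.15% of all 6545 genes tested, 7 were higher, against 5.03%, and 10 did not pass. Their median log2 difference was 0.27, against -0.02 over all genes. The summed intensity of the list was 99951 to 111207 in 7-day-old and 68394 to 84998 in 3-day-old arrays. Most of this sum came from CHGB, SCG5, SCG2 and PCSK1, genes of endocrine granules, with 7-day-old means of 22064, 20789, 16559 and 13828. GAP43, RTN1, THY1 and SYT1, described next, had 7-day-old means of 527, 384, 621 and 177, so the sum says little about them.

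The 4 lower genes were GAP43, a protein of growth cones and of Schwann cells, THY1, a surface glycoprotein of neurons and fibroblasts, RTN1, a reticulon of neuroendocrine cells, and SYT1, the calcium sensor of synaptic vesicles. GAP43 had 609, 500, 477 and 519 in 7-day-old replicates 1 to 4, against 829, 1568, 1097 and 916 in 3-day-old replicates 1 to 4 (log2 difference -1.03, limma adjusted p = 0.0221). As with STMN2 and NEFL, 3-day-old replicate 2 was the highest, and the 2 ages did not overlap. RTN1 had 331 to 427 in 7-day-old and 618 to 1269 in 3-day-old arrays (-1.14, adjusted p = 0.0214 by limma). The log2 differences of THY1 and SYT1 were -0.90 and -1.0, with limma adjusted p of 0.0144 and 0.0342. Each had a second probe set that did not pass (-0.70 for THY1 and -1.78 for SYT1). The second SYT1 probe set was dim and reached the 20th percentile in only 1 array. Leaving out 1 array ended the call of GAP43 in 4 of 8 cases, of RTN1 in 3 and of SYT1 in 7, and that of THY1 in none. RTN1 and SYT1 were named after their values were seen, to complete the 4.

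The 7 higher genes were the granule proteins CHGB, SCG2 and SCG3, the prohormone convertases PCSK1 and PCSK2, the exocytosis protein SNAP25 and the RNA-binding protein ELAVL4. SNAP25 had 6028, 5734, 5134 and 6009 in 7-day-old replicates 1 to 4, against 2380, 3505, 2859 and 3351 in 3-day-old replicates 1 to 4 (log2 difference 0.93, limma adjusted p = 0.00972). CHGB had 19834 to 23392 in 7-day-old and 11560 to 15893 in 3-day-old arrays (0.70, limma adjusted p = 0.0135). Neither gene overlapped between the ages. The log2 differences of PCSK2, SCG3 and ELAVL4 were 1.11, 1.05 and 0.75, and those of PCSK1 and SCG2 were 0.59 and 0.53, all past the threshold of limma. The calls of SNAP25, CHGB, PCSK2, SCG3 and ELAVL4 held with each array left out. That of PCSK1 was lost in 4 of 8 cases and that of SCG2 in 7, with limma adjusted p up to 0.064 and 0.0958.

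**Figure D4:**
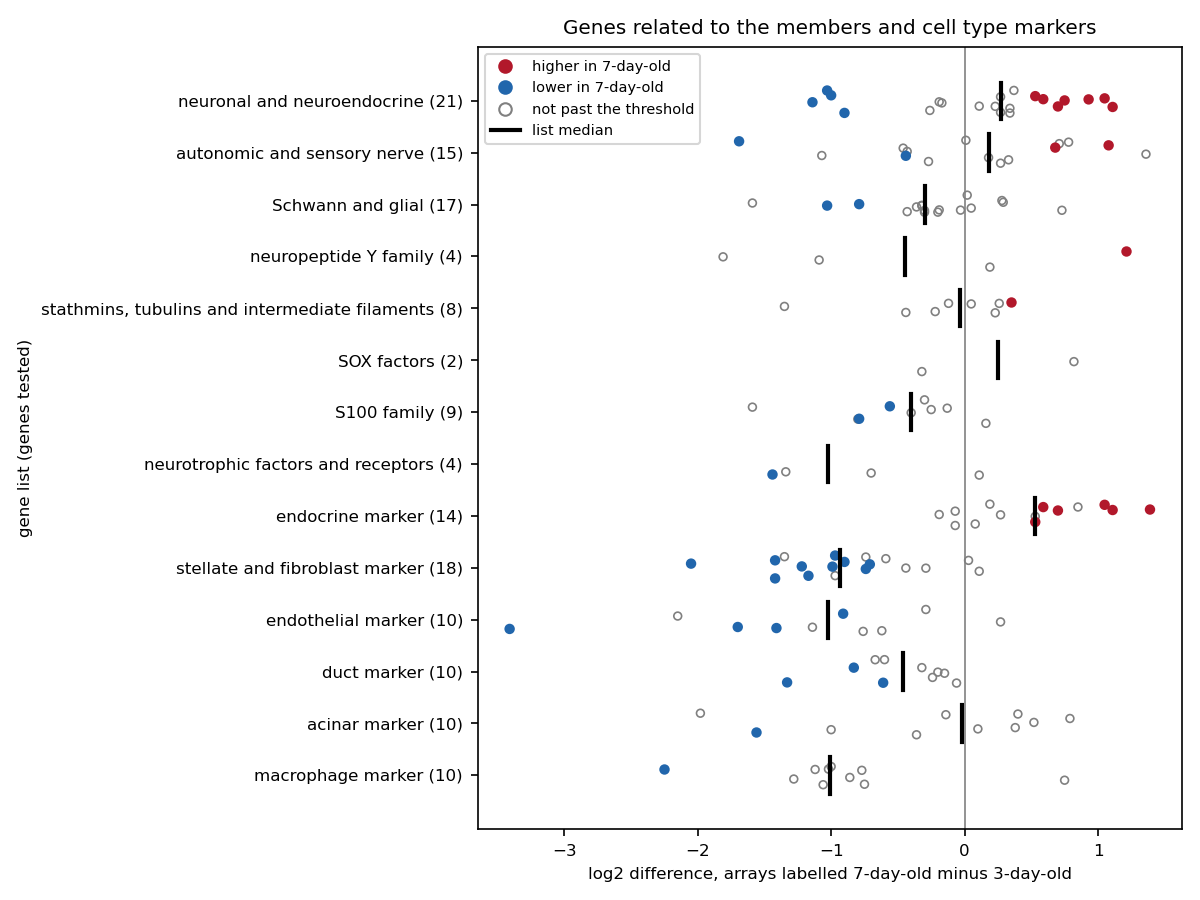
Difference in log2 intensity, 7-day-old minus 3-day-old labels (horizontal axis), of genes in 14 lists (rows, genes tested in brackets), 1 point per gene, red where higher and blue where lower past limma's threshold, open where not, with the list median as a bar. The neuronal and neuroendocrine list has called genes on both sides of 0, while the called genes of the stellate and fibroblast list, 10 of 18, all lie below it.

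Of 15 genes of autonomic and sensory nerves, 2 were higher, against 5.03% of all genes tested, 2 lower, against 7.15%, and 11 did not pass. Their median log2 difference was 0.18. CARTPT, the precursor of the CART peptide of nerves and endocrine cells, had 309, 274, 394 and 231 in 7-day-old replicates 1 to 4, against 821, 2402, 688 and 623 in 3-day-old replicates 1 to 4. It did not overlap, and 3-day-old replicate 2 again stood highest (log2 difference -1.69, limma adjusted p = 0.0466). MAOA, which breaks down monoamines, was lower by a log2 difference of -0.44. DDC, the decarboxylase that makes dopamine and serotonin, and GALP, a galanin-like peptide, were higher, with log2 differences of 0.68 and 1.08. None of these 4 calls was firm, since leaving out 1 array ended that of CARTPT in 7 of 8 cases, of MAOA in 8, of DDC in 7 and of GALP in 6.

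Of 17 Schwann and glial genes other than the members, none was higher, against 5.03% of all genes tested. In this list 2 were lower, against 7.15%, and 15 did not pass (limma). With so few calls the list lay near these shares. Its median log2 difference was -0.30. The lower ones were GAP43 and S100A1, a calcium-binding relative of S100B. S100A1 had 594 to 660 in 7-day-old and 1054 to 1093 in 3-day-old arrays, without overlap (log2 difference -0.79, limma adjusted p = 0.00407), and its call held with each array left out. MBP, a main protein of myelin read by 4 probe sets, had 1257 to 1528 in 7-day-old and 1049 to 1224 in 3-day-old arrays by its brightest probe set, which did not pass (log2 difference 0.28, limma adjusted p = 0.105). Of its other 3 probe sets 1 was higher (0.42, limma adjusted p = 0.033) and 2 did not pass. The summed intensity of the list was 13204 to 14764 in 7-day-old and 14923 to 16661 in 3-day-old arrays. Most of it came from GLUL and CD9, neither past the threshold. Their means were 4360 and 4213 in 7-day-old and 4477 and 4834 in 3-day-old arrays. Of the 17 genes, 5 fell under the 20th percentile in some arrays and none in all 8. Of the glial members S100B and 2 of the 4 GFAP probe sets reached the 20th percentile in all 8 arrays, while SOX10, the defining factor of Schwann cells, did so in 4.

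Relatives of the members were mostly not past the threshold. Their counts stand beside the 7.15% of all genes tested that were lower and the 5.03% that were higher in 7-day-old arrays. In the neuropeptide Y family PPY, the pancreatic polypeptide, had a log2 difference of 0.19 (limma adjusted p = 0.466). DPP4, the peptidase that trims NPY, was higher in 7-day-old arrays, at 776 to 1284 against 309 to 745 in 3-day-old arrays (1.21, limma adjusted p = 0.0448). That call was lost in 7 of 8 cases when 1 array was left out. Of 8 stathmins, tubulins and intermediate filaments STMN1, the stathmin of dividing cells, was higher (0.35, limma adjusted p = 0.0362) and none was lower. STMN1 and STMN2 thus differed in opposite directions, though the STMN1 call was lost in 7 of 8 cases. Neither SOX6 nor SOX9 passed (0.82 and -0.32). Of 9 S100 genes 2 were lower and none higher (limma), S100A1 and S100A11, the second by a log2 difference of -0.56. Of 4 neurotrophic factors and receptors, LIF, a cytokine that acts on neurons and on injured nerve, was lower (-1.44, limma adjusted p = 0.0146).

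Markers of other cell types were counted in the same way, beside the 7.15% of all genes tested that were lower in 7-day-old arrays. Of 18 stellate and fibroblast markers, 10 were lower and none higher (limma), with a median log2 difference of -0.94, among them RGS5 of pericytes (-1.42), DCN, the matrix proteoglycan decorin (-2.05), and FBN1, fibrillin (-0.97). Their summed intensity was 25103 to 28220 in 7-day-old and 36883 to 49465 in 3-day-old arrays. The largest part of it was VIM, with means of 15200 in 7-day-old and 20516 in 3-day-old arrays, which did not pass. Of 10 endothelial markers, 4 were lower and none higher, with a median of -1.02 and sums of 733 to 926 in 7-day-old and 1779 to 2279 in 3-day-old arrays. PECAM1, an adhesion molecule of endothelial cells, had a log2 difference of -1.70 (limma adjusted p = 0.00331). Of 10 duct markers 3 were lower (median -0.46), of 10 acinar markers 1 (median -0.02) and of 10 macrophage markers 1 (median -1.01), the acinar and macrophage counts being near the share over all genes, and none of them was higher (limma). Duct sums were 54264 to 57411 in 7-day-old and 61197 to 67255 in 3-day-old arrays, acinar sums 31434 to 52713 and 42588 to 54278, and macrophage sums 489 to 855 and 836 to 2260, in the same order. The part of these cells in the lower neuronal and glial transcripts was not tested.

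Of 14 endocrine markers, 6 were higher, against 5.03% of all genes tested, and none lower, against 7.15% (limma). Their median log2 difference was 0.53. NEUROD1, which switches on endocrine genes during islet development, had 642 to 853 in 7-day-old and 242 to 321 in 3-day-old arrays (log2 difference 1.39, limma adjusted p = 0.00407). A second NEUROD1 probe set did not pass (-0.19, limma adjusted p = 0.89). It was dim and reached the 20th percentile in only 2 arrays. The hormones INS, GCG and SST did not pass, at -0.07, -0.19 and 0.08. Their mean intensities were 23694, 26221 and 30936 in 7-day-old arrays. Whether signals this bright still follow the RNA level was not tested. The endocrine sums overlapped, at 152355 to 187767 in 7-day-old and 132341 to 164907 in 3-day-old arrays. Their part in the split of the neuronal and neuroendocrine list, with which they share CHGB, SCG2, SCG3, PCSK1 and PCSK2, was not tested.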

How the data were processed

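The deposited table holds 1 linear intensity per probe set and array, already scaled by the authors (the array medians lie between 171.6 and 178.5). The sources used here name no summarising software, and the median normalization of each probe set in the authors' methods is not in the values. The methods describe an additional amplification round where cRNA was low, without naming samples. Array and replicate names follow the deposited labels.

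Intensities under 1 were set to 1 (1528 values) and log2 transformed. Of 23999 probe sets other than controls, 21574 were kept for reaching their array's 20th percentile in 1 or more arrays. R 4.3.3 and limma 3.58.1 (functions lmFit and eBayes) gave two-sided tests with p adjusted by Benjamini-Hochberg, at a threshold of 0.05, 7-day-old minus 3-day-old, with no covariates. The annotation gave 1 symbol to 10069 probe sets, several to 198 and none to 13732. In the lists a gene was read by its probe set of highest mean, over 6545 genes. Members and lists were chosen with earlier results of these arrays known. The rule for genes to name took all member probe sets, up to 6 called genes per list by smallest adjusted p (up to 2 where none passed), and the 5 probe sets nearest to NPY, STMN2 and each glial member. Not all of them are printed, and RTN1, SYT1, SCG5, MBP, GLUL, CD9, VIM, PPY, INS, GCG and SST were named outside it, after their values were seen. The procedure was tested on simulated data. Tables and plots were made in Python 3.11.15 (numpy 2.4.6, pandas 2.3.3, matplotlib 3.10.9). Alternatives were no filter, a stricter one (50th percentile in 4 arrays), the methods' t-test, an intensity trend with robust variances, median centring, quantile normalization, array weights, an offset of 16, the replicate number as a block, the mean over a gene's probe sets and each array left out in turn. No genome was used, so no positions or sequences are given.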

Additional observations from a re-analysis of the deposited data

Results flagged for a closer look

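In the related lists, SCG3, a granule protein that was higher in arrays labelled 7-day-old, had 1 array far from the others of its label. Replicate 3 of the 7-day-old arrays had an intensity of 1399, against 1658 to 1691 in the other 3, and its gap to the nearest array was 0.897 of the whole range on the log2 scale, over Dixon's critical value for 4 values. Of 94 groups of 4 arrays examined, this was the only such case, where chance alone flags about 1 in 20.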

How the results depend on the processing

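The 2305 called probe sets became 3491 with an intensity trend and robust variances, and 1008 to 1854 with 1 array left out. The 7 called member probe sets became 4 with the methods' t-test, which lost S100B, GFAP and the second NEFL probe set (adjusted p 0.0707, 0.0644 and 0.0597), and 3 to 7 with 1 array left out (3 without 3-day-old replicate 2 or 3). The 39 called genes of the lists became 21 to 31 with 1 array left out, and 19 of them were called in every such fit. The sign turned only for 2 member probe sets that were not called, SOX10 (-0.53 to 0.66 with 1 array left out) and the second GFAP probe set (-0.19 to 0.11). The replicate number did not pair the arrays, since residuals of arrays with equal numbers correlated at -0.0135 to 0.00487. With the replicate block limma called 0 of all probe sets, 0 member probe sets and 0 listed genes after adjustment, while 5264, 7 and 66 of them passed an unadjusted p of 0.05. Dim probe sets, SOX10 above all, limit what these arrays can show.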
